A study of Arabidopsis thaliana with 6 samples.

Results

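In Arabidopsis thaliana, 986 of 31109 genes had at least 1000 counts in every library in a window of 500 bases that starts where the gene's annotation stops. These 986 windows were chosen by their counts, with 1 row per gene (the lowest isoform number) and the same minimum of 1000 in each of the 6 libraries, so their height is a description and not a result. Windows are named here by the gene they follow, and their reads do not measure that gene's expression, nor can they test the tissue by its marker genes. All libraries came from 9-day-old Col-0 seedlings, in 3 genotypes of 2 libraries each (wild type or WT, the nerd-1 mutant, the cpsf30-1 mutant), and no treatment is named. The labels give the mutants by allele name only, and do not say whether the replicates were separate batches of plants, so p-values measure the spread between these libraries, which may be technical. In whole seedlings, a change in the share of cells of a type and a change in RNA per cell cannot be told apart.

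CPSF30 is a zinc-finger subunit of the complex that recognises the polyadenylation signal of a nascent transcript and helps to cut it. NERD is known for its part in RNA silencing and DNA methylation. In a compact plant genome, neighbouring genes often point towards each other, so the sequence past the end of one gene can be the transcribed sequence of the next. The gene whose exons fill most of a window is called its covering gene here.

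The windows held between 70.1% and 73.4% of all counts in a library (totals with 1 row per gene ran from 8483983 to 13250798), and the mean count had a median of 2634.5 per window against 5 over all windows. The 10 highest windows held 22.7% of the members' counts and the 100 highest held 61.3%. Just inside the threshold lay the windows past GPX3 (lowest count 1000), NRT1.6 (1001) and VPS20.1 (1002), and just outside lay those past COS1 and AT2G28600 (999 each) and AT2G37120 (998). WT replicate 1, the shallowest library, held the lowest count for 505 of the windows and cpsf30-1 replicate 1 for 280. The share of windows that qualified was alike on the 5 chromosomes, from 2.96% to 3.36%. As a check of the genotypes, the window past CPSF30 isoform 2 had 43 and 49 counts in the WT libraries, 66 and 58 in those of nerd-1, and 1 and 0 in those of cpsf30-1. The window past CPSF30 isoform 1, the lowest isoform, was near 0 throughout, with 4 and 2, 3 and 4, and 4 and 16 counts in the same order, and showed no loss in cpsf30-1. The window past NERD had 0 counts except for 3 in cpsf30-1 replicate 1, so it checks nothing.

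Near-identical gene copies are shown first because the highest windows with no annotated exon lie between them. The last 30 coding bases of the copies, stop codon included, are given 5' to 3' from the TAIR10.1 reference, with capitals where a copy differs from the first of its family. RBCS1B (chr5:15384350-15384379), RBCS2B (chr5:15381203-15381232) and RBCS3B (chr5:15377501-15377530) encode the small subunit of Rubisco and lie on the minus strand. CAB2 (chr1:10475089-10475118, minus strand), CAB3 (chr1:10472443-10472472, minus strand) and CAB1 (chr1:10478845-10478874, plus strand) encode chlorophyll-binding antenna proteins. LHCB2.1 (chr2:1823449-1823478) and LHCB2.2 (chr2:1799436-1799465), both on the minus strand, encode another antenna protein.
RBCS1B: tacaagcccccaagcttcactgatgcttaa
RBCS2B: tacaagcccccaagcttcacCgaAgcttaa
RBCS3B: tacaagcccccaagcttcacCgaAgcttaa
CAB2: tttgccaccaactttgttcccggaaagtga
CAB3: ttCgcAaccaactttgttcccggaaagtga
CAB1: ttCgccaccaactttgttcccggaaagtga
LHCB2.1: tacgctactaactttgtccccggaaattaa
LHCB2.2: tacgctactaactttgtccccggaaaGtaa
Over the whole coding sequence RBCS2B was 97.2% identical to RBCS1B, CAB1 was 96.1% identical to CAB2, and LHCB2.2 was 96.6% identical to LHCB2.1.

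Another gene's exons lay in nearly all of the windows. Exons of another gene overlapped 958 of the 986 (97.2%) against 53.1% of all windows, and filled at least 250 bases of 868. The exons were on the other strand alone in 635 windows (64.4%, against 30.8% of all), on the same strand alone in 231 (23.4%, against 19.4%) and on both strands in 92. A window with no exon at all, the most common kind over all windows at 41.0%, was found 17 times (1.72%), 4 windows held only exons of their own gene's other isoforms, and 7 had no position in the reference. The libraries were made with a stranded kit, but the strand setting of the counting is not given in the sources used here, so reads of the 2 strands cannot be told apart.

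**Figure D1:**
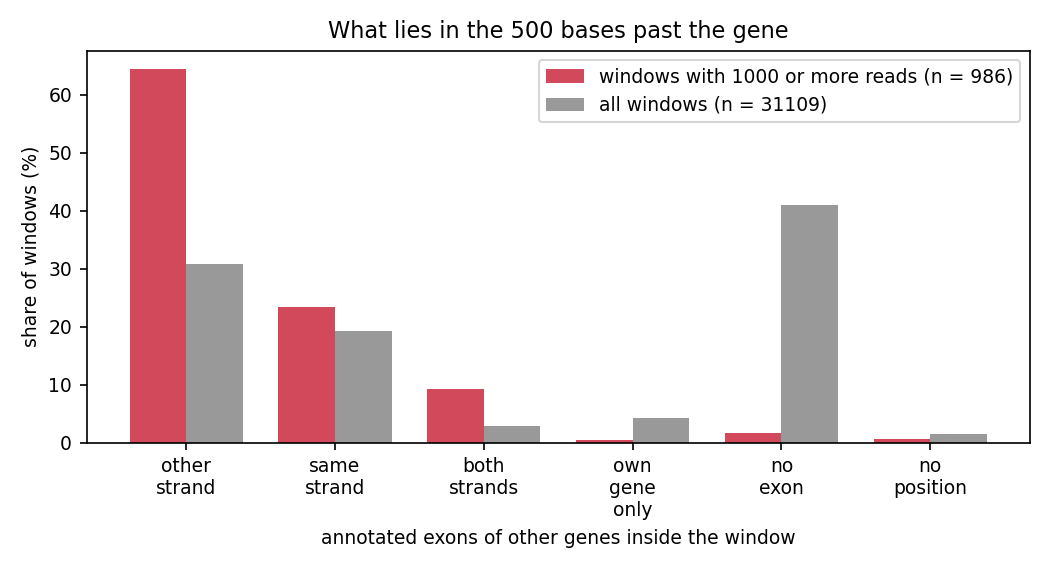
Share of windows (%, y axis) by what is annotated inside them (x axis), for the 986 windows and for all 31109. Windows with only other-strand exons make up 64.4% of the first and 30.8% of the second, while windows with no exon make up 1.72% and 41.0%.

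Most of these windows sat on the 3' end of a gene that runs towards the window's own gene. Among windows with the 3' part of an other-strand gene (the window's centre beyond 50% of its transcript), the 2 annotated 3' ends overlapped for 486 of 672 (72.3%), against 3898 of 9149 (42.6%) windows of that layout over the genome. Put the other way, 12.5% of such windows qualified where the ends overlapped and 3.54% where they did not. The 958 windows lay on 882 covering genes, and 76 of those genes lay under 2 windows each.

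Of the 12 highest windows, 10 lay on genes of the photosynthetic light reactions and 2 held no exon. The window past NRPA2, which encodes a subunit of RNA polymerase I, covers CAB1 over all 500 bases (chr1:10478507-10479006). It had 301062 and 539750 counts in the WT libraries, 290122 and 311744 in those of nerd-1, and 425625 and 503499 in those of cpsf30-1, and raw counts of the genotypes overlapped. As CPM (counts scaled to the TMM-adjusted library size), it stood at 38432 ± 4753 in WT, 31288 ± 3036 in nerd-1 and 45169 ± 3981 in cpsf30-1 (SD, n = 2). The 3 genotypes did not overlap in CPM, while cpsf30-1 against WT did not pass the test used below (log2 fold change 0.23, edgeR adjusted p = 0.738). The window past ATM2 lies on the 3' end of LHCB3 and the one past MRE11 on its 5' end, and LHCB3 encodes an antenna protein of photosystem II. Next came the windows past ATSMC2 on LHCA4, past RECA1 on PSBR, past CARB on CAB3 and past AT2G05060 on LHCB2.2. Every window is 500 bases long, but exons of the covering gene filled a median of 407.5 of them, so a count is the level of a window and not of its covering gene.

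**Figure D2:**
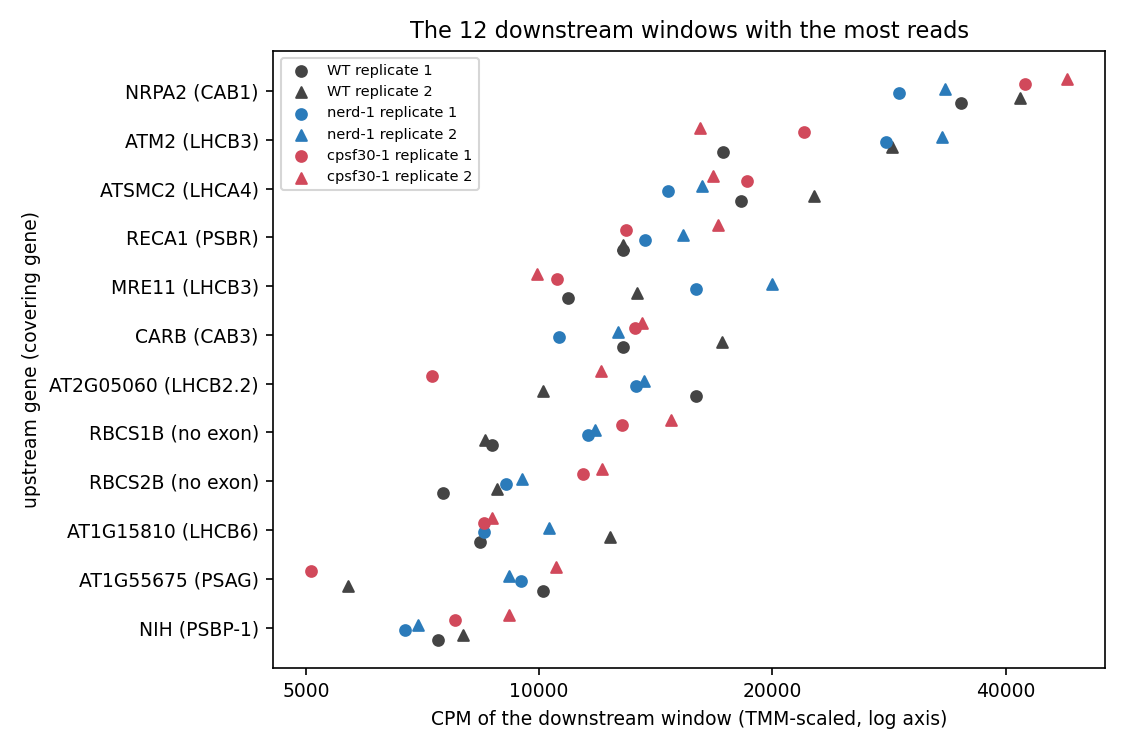
CPM (x axis, log scale) of the 12 windows with the highest mean, named by the upstream gene with the covering gene in brackets. Colours mark genotypes and shapes mark replicates. The window past NRPA2 had the highest mean, and for several windows the libraries of a genotype lie farther apart than the genotypes.

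Of the 17 windows with no annotated exon, 13 (76.5%) lay between genes of the same strand within 25000 bases that share at least 100 exact 30-base words, against 165 of 1625 tested windows with no exon (10.2%) and 787 of 12746 over the genome (6.17%). The distance and the word count were chosen after the values were seen, and the distance tried first, 20000 bases, gave 12 of 17. With at least 300 shared words the count was 9 of 17 (52.9%, against 3.08% over the genome) at 25000 bases and 8 of 17 at 20000. Of the 13, 6 lay between the same copies, LHCB2.2 and LHCB2.1. With each pair of copies counted once, 8 of 12 (66.7%) remained at 100 words and 4 of 12 (33.3%) at 300. The window past RBCS1B (chr5:15382667-15383166) had 74689 and 109849 counts in the WT libraries, 115214 and 110006 in those of nerd-1, and 128556 and 155121 in those of cpsf30-1. The window past RBCS2B had 64555 and 113846 counts in the WT libraries, 90290 and 88658 in those of nerd-1, and 114360 and 126394 in those of cpsf30-1. Neither was called between genotypes. The windows past AT2G05080, AT2G05082, AT2G05084 and AT2G05090, all between LHCB2.2 and LHCB2.1, had the same counts in every library, with 14704 and 43676 in the WT libraries, 12504 and 18276 in those of nerd-1, and 15143 and 22313 in those of cpsf30-1. These 4 windows do not overlap and lie between chr2:1805251 and chr2:1818141, and why separate windows share their counts was not tested. They are treated as 1 measurement listed 4 times. The window past AT2G05087 differed from them in 1 library only, with 12506 counts in nerd-1 replicate 1. How reads that match several copies were handled is not given in the sources used here, so counts between near-identical copies are uncertain. The 4 without such copies were the windows past AT1G79915, AT2G02770, AT2G33420 and AT3G24480. Of the 17, 1 was called higher in cpsf30-1 than WT and 0 lower, where 7.6% and 3.02% of all tested windows were. It was the window past AT1G79915 (log2 fold change 0.84, edgeR adjusted p = 0.0187).

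Before the genotypes are compared, 2 libraries that differed from the other 4 have to be described. All 6 libraries stay in the test used below. The ratio of WT replicate 2 to replicate 1 and the ratio of cpsf30-1 replicate 1 to replicate 2 went the same way in 829 of the 986 windows (r = 0.88 over windows, a description, since windows of 1 library share its depth and composition). The SD of the log2 ratio between replicates was 0.46 in WT, 0.38 in cpsf30-1 and 0.11 in nerd-1. More than 2-fold between replicates were 35 windows in WT, 12 in cpsf30-1 and 0 in nerd-1. The window past AT2G39725 on RCA, the Rubisco activase gene, had 32684 and 143691 counts in the WT libraries, 43129 and 50156 in those of nerd-1, and 114149 and 64863 in those of cpsf30-1. The window past DUR3 on CLPP4 went the other way, with 5975 and 3149 counts in the WT libraries, 7205 and 6289 in those of nerd-1, and 3863 and 10828 in those of cpsf30-1. WT replicate 2 and cpsf30-1 replicate 1 thus stood on 1 side and the other 4 libraries on the other.

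**Figure D3:**
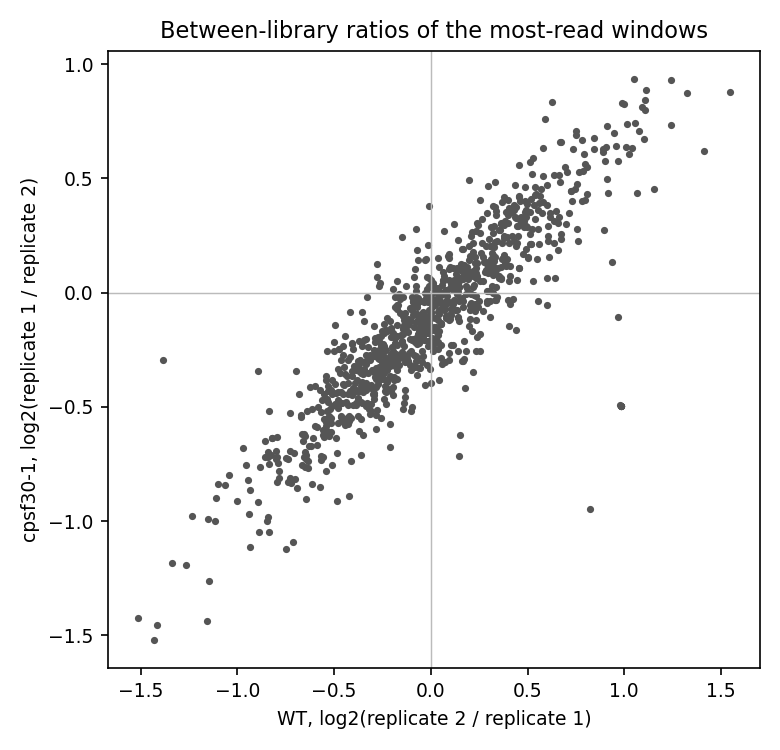
Each point is 1 of the 986 windows: log2 ratio of WT replicate 2 to replicate 1 (x axis) against log2 ratio of cpsf30-1 replicate 1 to replicate 2 (y axis). The points run along the diagonal, with the same sign for 829 windows.

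Over all windows with a covering gene, the WT ratio followed the position along that gene only weakly (r = 0.15, rho = 0.08, n = 957, a description), and the windows at either extreme are a small part of them. The extremes were ranked by the log2 ratio of WT replicate 2 to replicate 1 plus that of cpsf30-1 replicate 1 to replicate 2. Of the 40 windows with the lowest sum, 25 had same-strand exons only and 27 lay on the 5' part of the covering gene. Of the 40 with the highest sum, 29 had other-strand exons only and 29 lay on the 3' part. Of all 986 windows, 23.4% had same-strand exons only and 64.4% other-strand exons only, so the highest end lies near the members' own share. Of the 957 with a position, 295 lay between 60% and 80% of the covering gene, 340 beyond 80% and 213 within the first 20%. The 76 covering genes with 2 windows allow a 5' and a 3' position to be read in the same library, and for 74 of them the positions are more than 30% of the transcript apart. For RPL12-A, a plastid ribosomal protein gene, the log2 ratio of the 3' window (past AT3G27831) to the 5' window (past MDAR4) was -0.59 and 1.59 in the WT libraries, -0.54 and -0.36 in those of nerd-1, and 1.52 and -0.38 in those of cpsf30-1. For PSAG, a photosystem I subunit gene, it was -3.70 and -1.97 in the WT libraries, -3.73 and -3.69 in those of nerd-1, and -1.96 and -3.63 in those of cpsf30-1. For both genes WT replicate 2 and cpsf30-1 replicate 1 lie close together and above the other libraries. Other genes went the other way: for MTN1 the ratio was 1.08 and 0.15 in the WT libraries. Over the 76 genes it was higher in WT replicate 2 for 48 and lower for 28. The median difference was 0.22 over the 74 genes with positions more than 30% apart. The ratio moved by more than 0.5 between the WT replicates for 30 of the 76 genes and between the nerd-1 replicates for 0. These genes were named after their values were seen, and the source of the difference was not tested.

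For the genotypes, windows were tested with the edgeR quasi-likelihood test over all 14209 windows that passed a filter on low counts, and called at a Benjamini-Hochberg adjusted p under 0.05. All 986 passed the filter, and the rule holds each above 1000 in every library, so none can be near 0 in any genotype. In cpsf30-1 against WT, 59 windows were higher, 5.98% against 7.6% of all windows tested, and 38 were lower, 3.85% against 3.02%. Both shares lie near the background. The median log2 fold change was 0.05 over the members and -0.01 over all tested windows. The groups did not overlap in CPM for 273 windows above and 190 below (27.7% and 19.3%, against 27.5% and 24.7% of tested windows). The counts of calls changed with the libraries used. They were lower without any 1 library, those of nerd-1 included, and such fits estimate the spread from fewer libraries. The cause was not tested. Without WT replicate 1 the calls were 36 higher and 30 lower, without WT replicate 2 34 and 31, without nerd-1 replicate 1 16 and 16, and without nerd-1 replicate 2 16 and 16. Without cpsf30-1 replicate 1 they were 30 and 11, and without cpsf30-1 replicate 2 15 and 23.

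**Figure D4:**
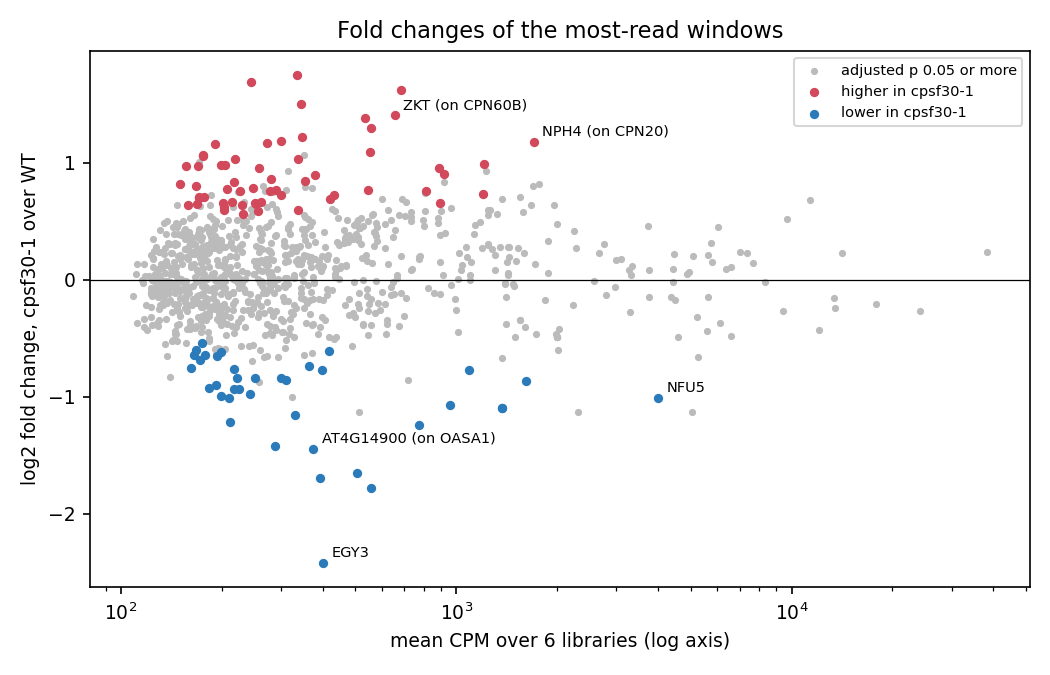
Log2 fold change of cpsf30-1 over WT (y axis) against mean CPM over the 6 libraries (x axis, log scale) for the 986 windows. Red marks the 59 called higher, blue the 38 called lower and grey the rest. The window past EGY3 is the lowest at -2.42.

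The largest fall was in the window past EGY3 (chr1:6149439-6149938), a plastid membrane protease homologue, which lies on the noncoding gene AT1G05347 and has exons on both strands. It had 5490 and 8420 counts in the WT libraries, 4268 and 4177 in those of nerd-1, and 1140 and 1336 in those of cpsf30-1. Both cpsf30-1 libraries were below all others, and the level fell by 2.42 on the log2 scale (SE 0.15, edgeR adjusted p = 0.000983). The window past AT1G76110, on the 5' end of the plastocyanin gene PETE1, had 7171 and 8465 counts in the WT libraries, 7198 and 6427 in those of nerd-1, and 1852 and 2611 in those of cpsf30-1. It fell by 1.78 on the log2 scale (SE 0.21, edgeR adjusted p = 0.00491). The windows past CYP81G1, AT3G05725 and AT1G22700 also fell, by 1.70, 1.65 and 1.42 on the log2 scale. The call for CYP81G1 was lost when any of 3 libraries was left out and that for AT1G22700 when 1 was, while those for EGY3, AT1G76110 and AT3G05725 held without any 1 library.

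OASA1, which encodes the cytosolic enzyme that makes cysteine from O-acetylserine, had windows at both ends that differed in direction. The window at its 5' end (past AT4G14900, chr4:8520282-8520781) had 3859 and 6022 counts in the WT libraries, 4576 and 4996 in those of nerd-1, and 1554 and 1903 in those of cpsf30-1, and fell by 1.45 on the log2 scale (SE 0.16, edgeR adjusted p = 0.00466). The window at its 3' end (past SECE1, chr4:8517955-8518454) had 3738 and 5512 counts in the WT libraries, 3584 and 3610 in those of nerd-1, and 5887 and 6707 in those of cpsf30-1, and was not called (log2 fold change 0.51, edgeR adjusted p = 0.0711). The log2 ratio of the 3' window to the 5' window was 1.92 and 1.82 in cpsf30-1 and between -0.47 and -0.05 in the other 4 libraries. Among the 76 genes with 2 windows, OASA1 was the single one whose ends differed by more than 0.5 in cpsf30-1 against WT. It was chosen after its values were seen and has no test of the difference between ends.

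**Figure D5:**
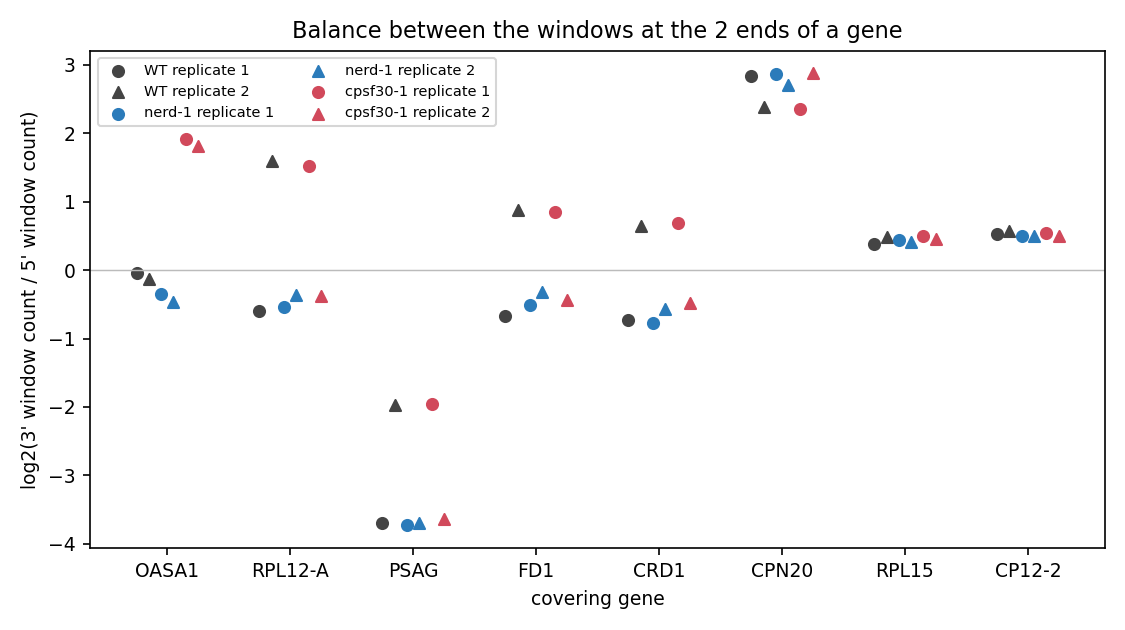
Log2 ratio of the count in the 3' window to that in the 5' window (y axis) for 8 covering genes (x axis), with 1 point per library. Only for OASA1 among these 8 do both cpsf30-1 libraries (1.92 and 1.82) lie away from all others. For RPL12-A, PSAG, FD1, CRD1 and CPN20, WT replicate 2 and cpsf30-1 replicate 1 lie away from the other 4.

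The largest rise was in 2 windows of 1 convergent pair. The window past AT2G27730, on the acidic ribosomal protein gene AT2G27720, had 1076 and 3501 counts in the WT libraries, 1392 and 1299 in those of nerd-1, and 8688 and 4906 in those of cpsf30-1 (log2 fold change 1.75, SE 0.40, edgeR adjusted p = 0.0363). The window past AT2G27720, on AT2G27730, had 1049 and 2086 counts in the WT libraries, 1323 and 1250 in those of nerd-1, and 4670 and 4701 in those of cpsf30-1 (log2 fold change 1.68, SE 0.17, edgeR adjusted p = 0.00345). The call of the first was lost without 4 of the 6 libraries in turn, and that of the second held without any 1 library. The 2 windows overlap, so they share reads and are not separate evidence.

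Among other large rises, the window past AT1G62170 lies on APR2 and the one past APG8A on APR3. Both genes encode adenylylsulfate reductases, which reduce activated sulfate in the plastid. The APR2 window had 3612 and 4304 counts in the WT libraries, 4964 and 4960 in those of nerd-1, and 9648 and 14196 in those of cpsf30-1 (log2 fold change 1.62, edgeR adjusted p = 0.00705). The APR3 window had 2012 and 3055 counts in the WT libraries, 2522 and 2452 in those of nerd-1, and 5439 and 5813 in those of cpsf30-1 (log2 fold change 1.22, edgeR adjusted p = 0.00472). The window past AT5G63300 on NDPK2, a nucleoside diphosphate kinase gene, had 1522 and 3301 counts in the WT libraries, 2033 and 1862 in those of nerd-1, and 7415 and 5140 in those of cpsf30-1 (edgeR adjusted p = 0.0132). The window past AT5G13940 on TT4, the chalcone synthase gene of flavonoid synthesis, rose by 1.38 on the log2 scale. The APR3 window lies outside the naming rule.

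Windows on CPN60B and CPN20, which encode parts of the plastid chaperonin, were among those that rose. The window past ZKT, on CPN60B, had 3803 and 4268 counts in the WT libraries, 5405 and 5324 in those of nerd-1, and 8312 and 12795 in those of cpsf30-1 (log2 fold change 1.40, edgeR adjusted p = 0.0137, lost without 1 library). The window past NPH4, on the 3' end of the co-chaperonin gene CPN20, had 9599 and 14680 counts in the WT libraries, 13857 and 13584 in those of nerd-1, and 25152 and 27254 in those of cpsf30-1 (log2 fold change 1.18, edgeR adjusted p = 0.0093). The window past BGAL7, at the 5' end of CPN20, rose as well, by 1.17. CPN20 and CPN60B belong to no list as first written, which took heat shock symbols only and held 1 member (past AT5G56020 on HSP81-2) with 0 calls. A list widened to chaperonins and DnaJ proteins after the members' names were seen held 17 windows on 14 covering genes. Of these windows, 6 were higher and 0 lower, where 7.6% of all tested windows were higher. The list is given as a count with no test, and 2 windows on 1 gene are not separate evidence.

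Windows on ribosomal protein genes are given as counts, beside 7.6% higher and 3.02% lower over all tested windows. The list as first written took 23 windows by symbol and description, plastid ribosomal proteins among them and 3 on genes of other function (RPE, RPT1A and RPH1), of which 4 were higher and 0 lower, with a median log2 fold change of 0.50. Widened to all ribosomal proteins after names were seen, it held 74 windows on 65 covering genes, 8 higher and 0 lower, with a median of 0.42. The 2 windows of RPL15, a plastid ribosomal protein gene, rose together: the one at its 3' end had 7706 and 11563 counts in the WT libraries, 9286 and 9297 in those of nerd-1, and 17695 and 18870 in those of cpsf30-1 (log2 fold change 0.99, edgeR adjusted p = 0.0129). The one at its 5' end rose by 0.95, and the 3' to 5' ratio kept within 0.39 and 0.49 in all 6 libraries. Without either nerd-1 library both counts of rises were 0. Without any of the others they were between 1 and 6 for the list as first written and between 1 and 4 for the widened one.

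Windows on genes of photosynthesis held many of the reads. Light reaction genes covered 41 windows by the symbols first written (50 on 37 covering genes when widened, with 37.7% of the members' counts). Of the 41, 0 were higher and 2 lower (0 and 3 when widened), with a median log2 fold change of -0.13. All tested windows had 7.6% higher and 3.02% lower. The symbols also took 2 windows on PCB2, a gene of chlorophyll synthesis. The 2 were PETE1, above, and PSAD-2 of photosystem I, whose 3' window past RAB28 had 17817 and 24232 counts in the WT libraries, 17234 and 17172 in those of nerd-1, and 10236 and 12109 in those of cpsf30-1 (log2 fold change -0.86, edgeR adjusted p = 0.0289). The window at the 5' end of PSAD-2 (past AT1G03140) had 63395 and 51466 counts in the WT libraries, 69048 and 63676 in those of nerd-1, and 16965 and 36598 in those of cpsf30-1, and was not called (log2 fold change -1.14, edgeR adjusted p = 0.131). Carbon fixation and photorespiration genes covered 11 windows, 0 higher and 0 lower, and 19 on 16 covering genes when widened, 0 higher and 2 lower. Those 2 were at both ends of CP12-2, which encodes a small regulator of Calvin cycle enzymes. The one at its 3' end (past BZIP53) had 14079 and 21307 counts in the WT libraries, 16172 and 16359 in those of nerd-1, and 7111 and 8723 in those of cpsf30-1 (log2 fold change -1.10, edgeR adjusted p = 0.0124). The window past AT3G62422 had identical counts and is the same measurement.

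In the remaining lists as first written, the antioxidant enzymes (6 windows) had 1 higher, on GPX6, and chlorophyll synthesis (9 windows, 2 of them on CHL-CPN10) had 1 higher, on CHL-CPN10. CHL-CPN10 encodes a chaperonin and was taken by its symbol alone, so no window on a chlorophyll synthesis gene of the list as first written was called. Widened after names were seen, the chlorophyll synthesis list held 11 windows, of which 1 was higher and 0 lower. Histones (5), cytoskeleton (5), water channels (1), RNA binding and decay (2), ubiquitin and proteasome (10) and metallothioneins and defensins (5, of which 3 on MTO3 and MTN1 are other genes taken by symbol) had 0 in either direction, and no translation factor window was taken by symbol. Over all tested windows 7.6% were higher and 3.02% lower. When widened, antioxidant enzymes (8 windows) and translation factors (10) each had 1 higher and 0 lower, and RNA binding and decay (15) had 1 higher and 1 lower. The other widened lists had 0 in either direction: histones (7), cytoskeleton (5), water channels (2), ubiquitin and proteasome (13) and metallothioneins and defensins (2). For example, the window past CYP86A8 on PIP1B, a water channel gene, stood at 1097 ± 4.39 CPM in WT, 1061 ± 28.4 in nerd-1 and 1129 ± 95.6 in cpsf30-1 (SD, n = 2).

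In the last 50 bases of the covering genes whose 3' part lay under a window on the other strand, AATAAA, the canonical polyadenylation signal, was found in 79 of 672, searched on the gene's own strand. The share over all 27432 protein-coding genes was 9.5%, in covering genes of windows higher in cpsf30-1 it was 13.6% (6 of 44), and in those of windows lower 13% (3 of 23). A layout tried first, with the gene's end inside the window, gave 12 of 186 (6.45%). A match is a description and not a site. Some covering genes of called windows are shown 5' to 3' on their own strand with AATAAA in capitals. CPN20 (chr5:7016432-7016461, plus strand), CPN60B (chr1:20715583-20715612, minus strand) and HEMC (chr5:2663506-2663535, minus strand) lie under windows that rose, and AT3G15450 (chr3:5214083-5214112, plus strand) under one that fell.
CPN20: ggAATAAAgacttgagtttgaaaatgtgat
CPN60B: tatgAATAAAtcatgattccctcaatgctt
HEMC: ttagagagacaaAATAAAatccagagactt
AT3G15450: agacgataaagaAATAAAattgatttgctt

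In nerd-1 against WT, 0 of the 986 windows were called in either direction by the edgeR test, against 0.00704% of tested windows higher and 0.0493% lower. An unadjusted edgeR p under 0.05 was found for 92 of the 986 and for 1409 of all 14209 tested windows, which is a like share. DESeq2 called 6 higher and 6 lower, and its share over all tested windows is not given here. The smallest adjusted p was 0.113, at the window past AT5G54165, with 1174 and 1490 counts in the WT libraries, 2680 and 2626 in those of nerd-1, and 1371 and 1731 in those of cpsf30-1.

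In cpsf30-1 against nerd-1, 63 windows were higher (6.39%, against 7.57% of all tested) and 34 lower (3.45%, against 3.27%). This comparison shares the cpsf30-1 libraries with the one against WT. Outside the genes named above, the rule takes the windows past NHD1 (log2 fold change -1.31, edgeR adjusted p = 0.00556), BBX18 (1.44, 0.0398) and AT5G21030 (1.34, 0.0452). The calls of BBX18 and AT5G21030 were each lost in 4 of the 6 fits without 1 library (largest adjusted p 0.229 and 0.268) and that of NHD1 in 2. For NHD1 the counts were 2369 and 2977 in the WT libraries, 2599 and 2603 in those of nerd-1, and 1024 and 1219 in those of cpsf30-1. Without nerd-1 replicate 1 the calls were 0 higher and 3 lower, and without nerd-1 replicate 2 0 and 2. Without cpsf30-1 replicate 1 they were 10 and 10, without cpsf30-1 replicate 2 13 and 22, without WT replicate 1 105 and 54, and without WT replicate 2 79 and 50.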

How the data were processed

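The authors deposited 1 table of raw, unnormalized counts per library, with a row for each transcript's 500-base downstream window. Per the submitters' processing notes, the tools included TopHat2 2.0.7, Bowtie2 2.3.4, Cuffdiff and Cufflinks 2.2.1, with TAIR10 as the build. The counting tool is not given in the sources used here. Per the labels, libraries were paired reads of 125 bases from a stranded polyA kit. The members, lists and alternatives were chosen with earlier results of these data known. Lists as first written and as widened after the members' names were seen are both given, and so are the copy distance and motif layout tried first.

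Windows were rebuilt from RefSeq gene models of TAIR10.1 with Python 3.11.15. Counts were tested in edgeR 4.0.16 (quasi-likelihood, all 6 libraries, filterByExpr, TMM, R 4.3.3), which tested 14209 windows and left out 16900. DESeq2 1.42.0 and other settings were alternatives. Errors after ± are SD over 2 libraries. Depth runs from 8483983 to 13250798 counts with 1 row per gene. The test was also tried on counts simulated with the means and the fitted spread of these data.

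Named windows were the 12 highest, the 3 on each side of the threshold, up to 6 called per direction and comparison with the largest change, up to 4 per list, up to 10 with no exon, the extremes between replicates, and those past NERD and CPSF30. Windows named outside this rule were chosen after their values were seen.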

Additional observations from a re-analysis of the deposited data

How the results depend on the processing

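Counts of calls depended on the setting, and those below are windows higher and lower among the 986. In cpsf30-1 against WT (59 and 38) they were 110 and 88 with no filter, 17 and 16 with only the 4 libraries compared, and 11 and 8 at an adjusted p under 0.01. With at least 100 counts in every library 23 were lower. Leaving out 1 library at a time gave 15 to 36 higher and 11 to 31 lower. In nerd-1 against WT (0 and 0) they were 23 and 35 with no filter and 6 and 6 with DESeq2, and 0 and 0 without any 1 library. In cpsf30-1 against nerd-1 (63 and 34) they were 126 and 91 with no filter and 7 and 9 at an adjusted p under 0.01, with 52 lower when only the 4 libraries compared were used. Leaving out 1 library at a time gave 0 to 105 higher and 2 to 54 lower. The causes were not tested.

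The labels do not say whether same-numbered libraries form pairs, and this was not tested. Over the 986 windows, same-numbered deviations correlated at -0.88 between cpsf30-1 and WT, 0.51 between nerd-1 and WT and -0.33 between cpsf30-1 and nerd-1. Over all tested windows the values were -0.31, -0.0023 and -0.0033. With the replicate block the counts were 15 and 13 in cpsf30-1 against WT and 8 and 12 in cpsf30-1 against nerd-1. The ribosomal lists, as first written and widened, then had 1 window higher each. The crossed replicate block, added after seeing the data, gave 115 and 65, then 1 and 1 for nerd-1 against WT, and 138 and 76. Leaving out WT replicate 2 and cpsf30-1 replicate 1 together, also added, gave 345 and 157, 98 and 92, and 365 and 169, with the spread taken from the nerd-1 pair alone. A threshold of 500 gave 2022 windows and 2000 gave 460. Of 24 named fold changes, 0 reversed and 10 kept their call in every setting.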

Other observations

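The window past AT5G19150, on AILP1, had 9573 and 17290 counts in the WT libraries, 5470 and 5557 in those of nerd-1, and 5603 and 5031 in those of cpsf30-1. It fell by 1.24 on the log2 scale in cpsf30-1 (edgeR adjusted p = 0.00839), and the value for nerd-1 was -1.10 (edgeR adjusted p = 0.134). The window past AT3G15460, on AT3G15450, had 11719 and 21884 counts in the WT libraries, 7933 and 8260 in those of nerd-1, and 9603 and 8714 in those of cpsf30-1. Its log2 fold change was -0.78 in cpsf30-1 (edgeR adjusted p = 0.0446) and -0.86 in nerd-1 (edgeR adjusted p = 0.235). Neither passed the test in nerd-1. Both comparisons share the WT libraries, and these windows were picked with their values known.

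The window past GAUT12, on the transcription factor gene ILR3, had 2525 and 3460 counts in the WT libraries, 5592 and 5452 in those of nerd-1, and 2373 and 3327 in those of cpsf30-1. Its log2 fold change in nerd-1 against WT was 1.03 (edgeR adjusted p = 0.166), and it was picked with its values known.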
